A study of Mus musculus with 4 samples.

Results

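Some accessible promoters serve more than 1 gene, because the start sites of neighbouring genes lie inside the same stretch of open chromatin. Such promoters were taken from the ATAC-seq peak annotations of 2 mouse liver libraries as the peaks on chromosomes 1 to 19, X and Y that carry promoter lines for 2 or more different genes. The wild type library held 1789 of them among 14691 promoter peaks (12.2%) and 72302 peaks in all. The Mertk knockout library held 1922 among 17419 promoter peaks (11.0%) and 106319 peaks in all. ATAC-seq cuts accessible DNA with a transposase inside nuclei, and a peak is a region where the cuts pile up. Both libraries came from livers of mice after bile duct ligation, which blocks bile flow and leads to fibrosis; 1 library was wild type and the other a knockout of Mertk, a receptor kinase of macrophages that takes part in the uptake of dying cells. Each genotype had 1 ATAC library from a 10x Genomics Multiome run on nuclei from frozen liver, so a difference below describes these 2 libraries and not the genotypes. The number of animals behind a library, their age and sex, the time after ligation and the design of the knockout allele are stated nowhere in the labels.

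A divergent promoter lies between 2 genes that are read away from each other on opposite strands, and mammalian genomes hold many of them. They are known for CpG islands, for few TATA boxes and for genes of basic cell functions such as DNA repair and mitochondria. Many other promoters are read in both directions as well, with a coding gene on one side and a noncoding transcript, often named with the suffix os for opposite strand, on the other.

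A stretch between both start sites is shown for 8 pairs, because these bases lie between both genes inside the peak. The sequences are those of RefSeq on GRCm38.p6, the assembly behind mm10. Each runs 5′ to 3′ on the strand of the named gene, with the bases between both start sites in capitals and up to 30 bases beyond each start in lower case. The first 5 pairs are textbook examples found in both libraries. They are the chaperonin genes Hspd1 and Hspe1 (chr1:55087903-55088177, plus strand), the antigen processing genes Psmb9 and Tap1 (chr17:34187306-34187585, plus strand), the mitochondrial genes Mrps12 and Sars2 (chr7:28741792-28741997, minus strand), the nuclear transport gene Ranbp1 with the tRNA methylase gene Trmt2a (chr16:18248665-18248912, plus strand), and the DNA repair gene Mutyh with the RNA processing gene Toe1 (chr4:116807530-116807763, plus strand). Ptgs2, which makes the prostaglandin enzyme COX-2, and its opposite-strand transcript Ptgs2os stand for a coding and noncoding pair in both libraries (chr1:150099845-150100060, plus strand). Slc25a53, a gene of the mitochondrial carrier family, and Zcchc18 were served by 1 peak in the wild type library alone (chrX:136993003-136993176, plus strand). Abcg5 and Abcg8, which encode both partners of the sterol transporter of the bile canaliculus, were served by 1 peak in the knockout library alone (chr17:84682982-84683150, plus strand).
Hspe1: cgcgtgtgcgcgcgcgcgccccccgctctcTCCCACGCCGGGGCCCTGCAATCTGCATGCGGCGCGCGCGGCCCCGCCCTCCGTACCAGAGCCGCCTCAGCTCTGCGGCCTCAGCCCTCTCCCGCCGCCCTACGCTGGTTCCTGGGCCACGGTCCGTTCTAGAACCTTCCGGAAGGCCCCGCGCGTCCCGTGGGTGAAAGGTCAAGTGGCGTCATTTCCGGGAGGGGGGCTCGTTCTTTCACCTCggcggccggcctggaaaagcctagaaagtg
Tap1: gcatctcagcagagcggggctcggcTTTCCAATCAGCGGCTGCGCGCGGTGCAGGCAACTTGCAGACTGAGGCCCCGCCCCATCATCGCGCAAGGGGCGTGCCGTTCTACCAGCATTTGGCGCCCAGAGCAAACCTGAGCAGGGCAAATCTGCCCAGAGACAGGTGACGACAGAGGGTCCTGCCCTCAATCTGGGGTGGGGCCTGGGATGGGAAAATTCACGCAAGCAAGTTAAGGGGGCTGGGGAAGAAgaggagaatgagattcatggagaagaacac
Mrps12: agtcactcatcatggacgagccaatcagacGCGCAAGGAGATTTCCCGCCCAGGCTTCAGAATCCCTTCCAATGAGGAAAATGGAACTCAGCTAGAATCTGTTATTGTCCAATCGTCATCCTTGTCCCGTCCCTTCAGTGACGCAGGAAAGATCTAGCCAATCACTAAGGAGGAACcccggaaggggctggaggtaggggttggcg
Trmt2a: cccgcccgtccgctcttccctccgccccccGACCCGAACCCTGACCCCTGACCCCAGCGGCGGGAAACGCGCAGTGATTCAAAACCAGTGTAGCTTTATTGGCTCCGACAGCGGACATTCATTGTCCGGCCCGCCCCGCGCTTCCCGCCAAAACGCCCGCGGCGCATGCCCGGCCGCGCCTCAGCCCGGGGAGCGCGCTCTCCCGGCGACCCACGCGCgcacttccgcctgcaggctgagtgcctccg
Mutyh: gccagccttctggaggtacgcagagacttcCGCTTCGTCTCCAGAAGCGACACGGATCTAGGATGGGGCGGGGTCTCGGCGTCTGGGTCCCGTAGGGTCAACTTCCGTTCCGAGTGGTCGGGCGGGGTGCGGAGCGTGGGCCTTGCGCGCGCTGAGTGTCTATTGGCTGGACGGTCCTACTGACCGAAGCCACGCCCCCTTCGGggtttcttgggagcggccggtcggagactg
Ptgs2: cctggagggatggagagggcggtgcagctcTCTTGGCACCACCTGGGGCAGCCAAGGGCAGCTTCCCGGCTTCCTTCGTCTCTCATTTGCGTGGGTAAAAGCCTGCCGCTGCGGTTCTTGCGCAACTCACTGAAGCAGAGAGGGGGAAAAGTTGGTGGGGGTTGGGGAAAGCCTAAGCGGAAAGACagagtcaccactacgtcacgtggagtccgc
Zcchc18: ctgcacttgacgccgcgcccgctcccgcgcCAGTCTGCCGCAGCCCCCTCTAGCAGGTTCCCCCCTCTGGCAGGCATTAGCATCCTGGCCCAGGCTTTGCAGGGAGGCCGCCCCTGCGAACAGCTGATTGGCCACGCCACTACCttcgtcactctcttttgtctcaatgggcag
Abcg8: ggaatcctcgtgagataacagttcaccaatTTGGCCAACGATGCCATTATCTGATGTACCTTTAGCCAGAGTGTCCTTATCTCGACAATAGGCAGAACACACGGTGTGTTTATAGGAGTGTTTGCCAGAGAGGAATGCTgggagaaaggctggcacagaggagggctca

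The capitals differ in their content of CpG, the base pair step at which mammalian DNA is methylated. Between Hspd1 and Hspe1 lay 215 bases with 24 CpG, and between Trmt2a and Ranbp1 lay 188 bases with 26 CpG. Between Mutyh and Toe1 lay 174 bases with 21 CpG. The stretch between Psmb9 and Tap1 held 12 CpG in 225 bases, the one between Mrps12 and Sars2 held 5 in 146, and the one at Ptgs2 held 7 in 156. Between Slc25a53 and Zcchc18 were 4 CpG in 114 bases, and between Abcg5 and Abcg8 were 3 CpG in 109 bases. The Abcg5/Abcg8 stretch was also the only one of the 8 with a TATA box (TATAAA on either strand), and it had no GC box. A GC box (GGGCGG on either strand) was present in 6 of the other 7 stretches; the one at Ptgs2 had none.

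The annotation itself sets which peaks can have several genes. It gives the distance from a peak to each gene, and this distance was 0 for all genes of the peak in 1787 of 1789 wild type members and in all 1922 knockout members. In the other 2 wild type members both genes were equally far away, at -556 bp for Hist3h2a/Trim17 and at -708 bp for Glt28d2/Gm37240. All promoter lines of a peak with several genes thus had the same distance, so a gene farther away than the nearest one received no promoter line. A line of the distal kind for a further gene was present at 1610 wild type and 2121 knockout promoter peaks of 1 gene. That the starts of a member lie inside it is therefore part of how members were chosen and no finding, and a peak of 1 gene can still have the start of another gene close by. Among promoter peaks of 1 gene, 86.9% in wild type and 85.4% in knockout had that start inside. The comparison with peaks of 1 gene is therefore also given for those with the start inside. Peaks of 1 gene that come close to the rule were counted by RefSeq starts. Not every gene had such a start, and chromosome 18 had none, so the counts may be too low. A RefSeq start of a further gene lay inside 118 wild type and 128 knockout peaks of 1 gene. Such a start lay 1 to 50 bp outside the edge of 24 peaks of 1 gene in each library.

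The members held 3566 distinct genes in wild type, 24.0% of the 14854 genes with a promoter peak, and 3837 in knockout, 22.6% of 17006. Of the members, 1776 in wild type and 1908 in knockout had 2 genes. The remaining 13 and 14 had 3. Trios found in both libraries included Rabgap1/Zbtb26/Zbtb6, with a peak of 901 bp in wild type and 863 bp in knockout, Brcc3/Cmc4/Mtcp1 with 909 and 908 bp, Shld3/Trappc13/Trim23 with 822 and 847 bp, and Gbp4/Gbp8/Gbp9, a group of interferon-induced GTPases, with 912 and 858 bp. Ermard/Gm3448/Tcte3 and Gm45338/Masp1/Rtp4 were trios of the knockout library whose peaks, of 892 and 883 bp, overlapped no wild type peak. Over chromosomes with at least 50 promoter peaks, members made up between 8.76% (X) and 15.7% (12) of the promoter peaks in wild type. In knockout the range was from 7.63% (4) to 14.3% (12). Chromosome Y had 4 promoter peaks in wild type and no member in either library.

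A coding gene with another coding gene was the most frequent kind of pair, at 48.2% of all pairs. Over both libraries there were 1987 pairs, and 1576 of them had both genes matched to a RefSeq type. Of the matched pairs 957 were coding with coding, 607 coding with noncoding and 12 noncoding with noncoding. Noncoding genes with a promoter peak shared it more often than coding genes: 562 of 1403 (40.1%) against 2646 of 12519 (21.1%) in wild type, and 634 of 1775 (35.7%) against 2802 of 14020 in knockout. A gene and its own opposite-strand transcript, matched by name, made up 53 pairs, of which 41 were found in both libraries. Not all of these were coding with noncoding: Ccpg1/Ccpg1os and Cdipt/Cdiptos were coding with coding, and Arf4/Arf4os and Gss/Gssos1 held an unmatched gene. Among the widest coding and noncoding pairs without a predicted or clone-named gene were B9d1/B9d1os at a gene of the ciliary transition zone, with peaks of 1037 bp in wild type and 926 bp in knockout, Appbp2/Appbp2os with 950 and 906 bp, and Ptgs2/Ptgs2os with 917 and 1085 bp.

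Most pairs whose strands could be placed were divergent. RefSeq gave both starts near the peak for 1093 pairs, and 909 of these (83.2%) were divergent. In 171 pairs (15.6%) the genes lay on opposite strands with their 5′ ends overlapping, and in 13 (1.19%) both genes lay on the same strand. Coding pairs were divergent in 614 of 694 cases (88.5%), and coding with noncoding pairs in 291 of 394 (73.9%). The 5′ ends of coding with noncoding pairs overlapped in 103 of 394 cases (26.1%), against 67 of 694 (9.65%) for coding pairs. Starts of divergent pairs lay a median of 151 bp apart (quartiles 76 and 284 bp), with 32.9% under 100 bp and 77.1% under 300 bp. Overlapping pairs had starts a median of 280 bp apart.

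The share of neighbouring pairs served by 1 peak changed little with the distance of their starts up to 499 bp and fell beyond that. Peak width bears on this fall: 92.2% of wild type and 92.5% of knockout members were 800 to 1000 bp wide. A peak of such size has less room for starts far apart, and the part of width was not tested. RefSeq holds 1106 head-to-head pairs on these chromosomes, other than 18, with starts 1 to 1000 bp apart, and 936 of them (84.6%) were served by 1 promoter peak in at least 1 library. The share was 88.7% of 391 pairs at 1 to 99 bp, 90.3% of 298 at 100 to 199 bp and 91.2% of 34 at 400 to 499 bp. It was 64.9% of 37 at 500 to 599 bp, 44.4% of 27 at 600 to 699 bp and 32.4% of 37 at 800 to 1000 bp. Over all distances, coding pairs were in 1 peak in 88.4% of 714 cases and coding with noncoding pairs in 80.3% of 375. Neither gene had a promoter peak in 22 of the 1106 pairs, and the genes had separate promoter peaks in 61.

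**Figure D1:**
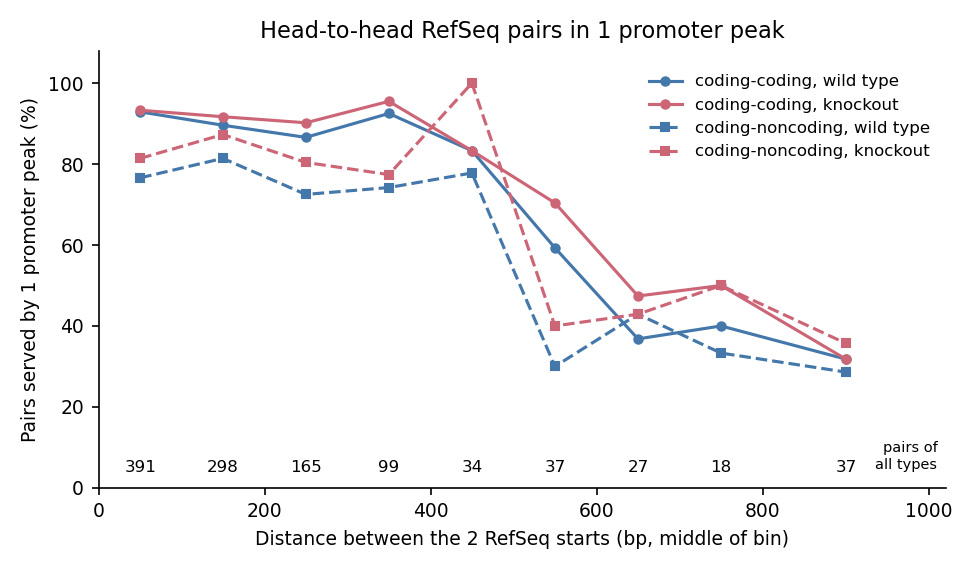
Share of head-to-head RefSeq pairs whose starts are served by 1 promoter peak (y axis, percent) against the distance between both starts (x axis, bp, middle of each bin), for coding pairs (circles, solid) and coding with noncoding pairs (squares, dashed) in wild type (blue) and knockout (red). Numbers along the bottom are pairs of all types per bin; coding pairs stay between 83.3% and 95.5% up to 499 bp and are at 31.8% in both libraries at 800 to 1000 bp.

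The annotated starts of a member lie inside it by the rule, which bears on where its centre can lie, so its position is given as a description. Starts here were those of RefSeq, taken up to 1000 bp from the peak, so some may lie outside it. In divergent members of 2 genes the median distance of the centre from that midpoint was 60.5 bp in wild type (n = 848) and 55.5 bp in knockout (n = 894). The centre fell between both starts in 58.8% and 60.2% of them. In peaks of 1 gene with the start inside, the centre lay a median of 6.5 bp from the start along the strand of the gene in wild type (quartiles -73.0 and 83.5 bp, n = 8233). In knockout it lay at -3.00 bp (quartiles -82.5 and 78.0 bp, n = 9505), where negative values are upstream.

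**Figure D2:**
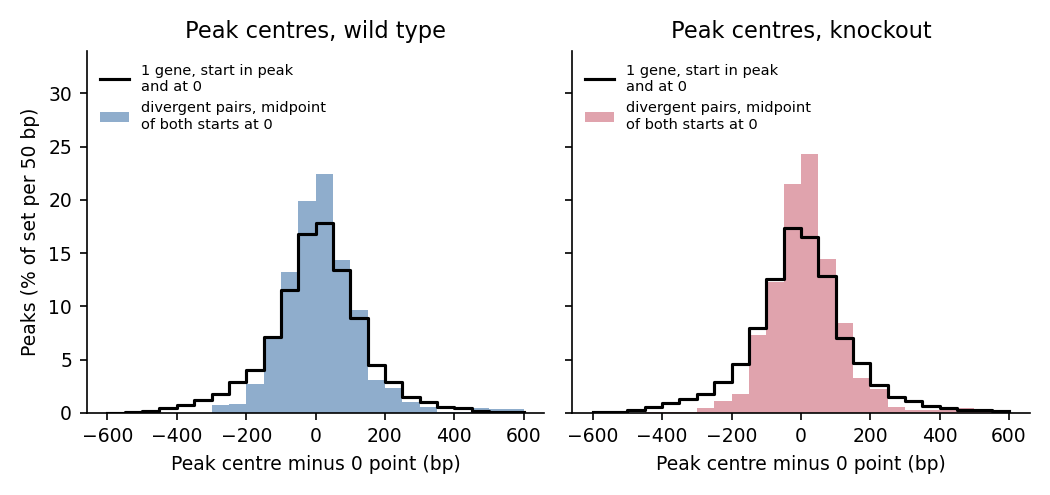
Distance of the peak centre (x axis, bp) from the midpoint of both starts for divergent members of 2 genes (bars) and from the start, along its strand, for promoter peaks of 1 gene with the start inside (black line), as percent of each set per 50 bp (y axis), in wild type (left) and knockout (right). Both distributions centre near 0, and the bars for divergent members are higher within 50 bp of 0.

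Members were slightly wider than peaks of 1 gene, by less than the spread within either set. A wider peak reaches more starts, so width bears on which peaks become members. The part of the rule in this difference was not tested. The peaks of 1 gene here include those with the start outside. The median width of members was 890 bp in wild type (quartiles 858 and 916) and 895 bp in knockout (864 and 914). Promoter peaks of 1 gene had medians of 874 bp (830 and 904) and 879 bp (835 and 905). Widths from 800 to 1000 bp made up 92.2% of members and 81.8% of peaks of 1 gene in wild type, and 92.5% and 82.7% in knockout. The same pair had nearly the same width in both libraries: the log2 ratio of knockout over wild type width had a median of 0.00 over 1768 pairs, with quartiles -0.02 and 0.04. The centre moved by a median of 23.0 bp between libraries, against 27.0 bp for 11767 genes with a peak of their own.

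Single pairs went beyond this range. The peak of Cep57l1/Sesn1 was the widest among pairs of both libraries without a predicted gene, at 1113 bp in wild type, and had 849 bp in knockout. Its RefSeq starts lie 911 bp apart. The peak of Armh1/Tmem53 was 913 bp wide in wild type and 632 bp in knockout (log2 ratio -0.53). Cnpy4/Taf6, with a subunit gene of the general transcription factor TFIID, had 492 bp in wild type and 797 bp in knockout (log2 ratio 0.70), and N4bp2/N4bp2os had 551 and 897 bp (0.70). Only 4 of the 1768 pairs differed by more than 1.5-fold in width. Beside the last 2, these were 4933421A08Rik/Mfsd2a, at 508 and 894 bp, and Fat1/Gm9908, at 1568 and 668 bp.

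The start windows of members were richer in CpG than those of peaks with 1 gene. RefSeq windows of 300 bases, with 250 before the start and 50 from it on, were at hand for 2782 member genes, 9746 genes of peaks with 1 gene and 4162 annotated genes with no promoter peak in either library. The median GC content was 63.3% in members and 59.7% in peaks of 1 gene. The ratio of observed to expected CpG had medians of 0.85 in members, 0.70 in peaks of 1 gene and 0.24 without a promoter peak. It reached 0.6, a usual limit for a CpG island, in 87.0%, 62.1% and 12.8% of windows. Windows of divergent pairs reached it in 91.4% of 1814 cases and those of overlapping pairs in 76.0% of 341. The windows of a close pair cover many of the same bases, so they are not independent of each other.

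Short motifs were counted on both strands of the same windows as letters only, without weighing the sites. The core bound by ETS factors (CCGGAAG) was in 26.2% of member windows, 13.6% of windows with 1 gene in the peak and 16.4% of all 12528 windows of genes with a promoter peak. In divergent pairs it was in 28.9% and in overlapping pairs in 18.5%. A GC box was in 71.0%, against 59.8% with 1 gene and 62.3% of all. The YY1 core (GATGGCG) was in 8.77%, 5.21% and 6.00%, the NRF1 core (CATGCGC) in 8.41%, 6.13% and 6.63%, and the Zbtb33-type core (TCGCGA) in 7.05%, 4.14% and 4.78%. The CCAAT box (CCAAT) was in 40.0% of member windows and 37.5% of those with 1 gene. The TATA box was the 1 motif of the 7 that was less frequent in member windows, at 4.92% against 8.35% with 1 gene and 7.59% of all.

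**Figure D3:**
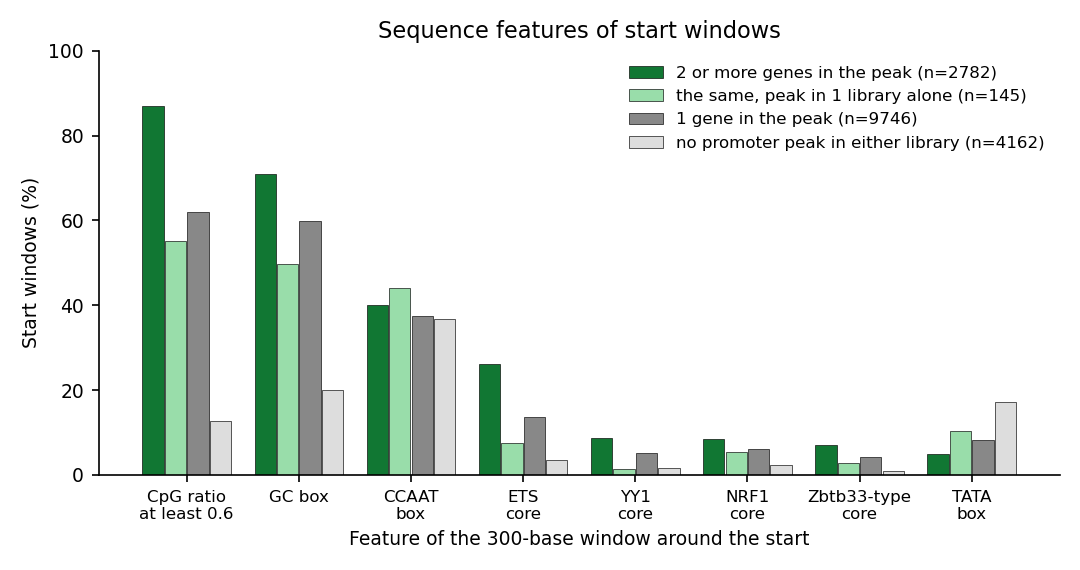
Percent of 300-base start windows (y axis) with an observed to expected CpG ratio of at least 0.6 or with each of 7 motifs (x axis), for genes that share their promoter peak (dark green), those of them whose peak was in 1 library alone (light green), genes with a peak of their own (dark grey) and genes with no promoter peak (light grey). The ETS core stands at 26.2%, 7.59%, 13.6% and 3.58% of windows in these 4 sets.

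Nearly all members were found in both libraries. Of the wild type members, 1776 of 1789 (99.3%, 95% exact binomial interval 98.8 to 99.6%) overlapped a knockout peak by at least 1 bp, and 13 did not, while 6.49% of all wild type promoter peaks overlapped none. Of the knockout members, 1809 of 1922 (94.1%, interval 93.0 to 95.1%) overlapped a wild type peak and 113 did not, while 21.1% of all knockout promoter peaks overlapped none. Peaks of 1 gene were overlapped in 92.7% of cases in wild type and 77.1% in knockout. With a coding gene and its start inside the peak, these shares were 96.8% of 10151 and 83.8% of 11752. Members were thus overlapped more often than these peaks by 2.43 percentage points in wild type and 10.3 in knockout. The intervals cover counting error only and treat peaks as independent.

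Members were overlapped more often within classes of width and of CpG content as well, though the classes are broad and members may still differ from the other peaks within them. In each of the 5 width classes, from under 800 bp to 950 bp and more, a larger share of members than of peaks with 1 gene was overlapped, in both libraries. At 850 up to 900 bp the shares were 99.7% against 95.3% in wild type and 95.8% against 80.7% in knockout. For CpG, a member was classed by the highest ratio among the start windows of its genes, and a peak of 1 gene by its single window. A member could thus reach 0.6 through 1 of its genes. Where this ratio was at least 0.6, the shares were 99.6% against 97.3% in wild type and 96.7% against 90.5% in knockout. Under 0.6 they were 95.8% against 89.4% and 79.5% against 65.9%. The difference was smaller in the class with more CpG than over all peaks of 1 gene: 2.38 against 6.56 percentage points in wild type and 6.24 against 17.1 in knockout. With the knockout list held to its widest peaks, as many as the wild type has, 82.6% of wild type members were overlapped.

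**Figure D4:**
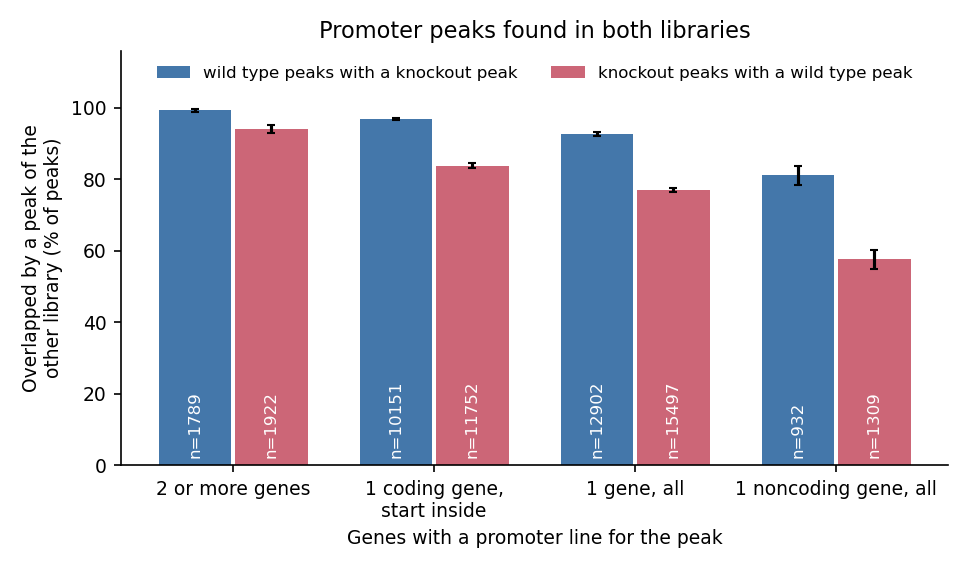
Percent of promoter peaks overlapped by a peak of the other library (y axis, from 0), for members and 3 sets of peaks with 1 gene (x axis), in wild type (blue) and knockout (red); bars carry the number of peaks and exact 95% binomial intervals. Members stand highest in both libraries, at 99.3% and 94.1%, and peaks of 1 noncoding gene lowest, at 81.2% and 57.7%.

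Counted by pair rather than by peak, most were again found in both libraries. Of 1809 wild type pairs, 1768 (97.7%) were also served by 1 peak in knockout. In 9 the genes had separate promoter peaks there, in 27 only 1 gene had one and in 5 neither had. Of 1946 knockout pairs, 1768 (90.9%) were served by 1 peak in wild type, 10 by separate peaks and 67 by a peak for 1 gene, and for 101 neither gene had a promoter peak. Pairs of the knockout library alone had other partners than pairs of both libraries: 45 of 178 (25.3%) were coding with coding against 895 of 1768 (50.6%), and 128 of 178 (71.9%) held a predicted or clone-named gene against 870 of 1768 (49.2%). Of the placed pairs of the knockout library alone 51 of 70 (72.9%) were divergent, and of those of wild type alone 9 of 22 (40.9%), against 849 of 1001 (84.8%) of pairs in both.

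The 2 libraries differed in depth and in the cell types that their peaks mark. Called nuclei numbered 5828 in wild type and 5339 in knockout, with 40858512 and 83996145 ATAC fragments, 2.06 times as many in knockout. Fragments in peaks made up 33.7% and 46.0%. Of 23 hepatocyte markers, 5 had a promoter peak in wild type and 23 in knockout; for stellate cells and fibroblasts it was 3 and 11 of 16, for cholangiocytes 4 and 6 of 12, for endothelial cells 15 and 15 of 16, for Kupffer cells and macrophages 17 and 16 of 20, for neutrophils 7 and 9 of 14, and for T, natural killer and B cells 5 and 1 of 20. Most hepatocyte markers thus had no promoter peak in the wild type liver library. The part of depth and of cell make-up in the peaks of 1 library alone was not tested. Fewer cells of a type and less open chromatin per cell cannot be told apart here.

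Among the pairs of the knockout library alone, the Abcg5/Abcg8 peak was 936 bp wide (chr17:84682763-84683698), with starts 110 bp apart, and neither gene had a promoter peak in wild type. Neither had one for Bhmt2/Dmgdh either, genes of methionine and choline breakdown, with a knockout peak of 901 bp and starts 134 bp apart. Likewise neither had one for Serpina3k/Serpina3m, protease inhibitors (825 bp), nor for Ang/Rnase4, secreted ribonucleases (836 bp). For Dnase2b/Uox, with the gene of urate oxidase (923 bp), 1 of the 2 genes had a promoter peak in wild type. Bhmt2, Serpina3k, Ang and their partners were picked after their values were seen. Of the 113 knockout members without a wild type peak, 96 had genes with no promoter peak in wild type at all. As no wild type peak overlaps these members, that count is largely set by how they were chosen. In 1 member the genes had separate promoter peaks in wild type, and 86 of the 113 held a predicted gene. With predicted and clone-named genes left out, 942 of all 1922 knockout members still had 2 or more genes.

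The type IV collagen genes Col4a3/Col4a4 shared a knockout peak of 900 bp and neither gene had a promoter peak in wild type. Col4a1/Col4a2, the main type IV collagens of basement membranes, shared a peak in both libraries, of 784 bp in wild type and 895 bp in knockout. The oxidase and its maturation factor Duox2/Duoxa2 (874 bp) and the imprinted neighbours Peg3/Usp29 (645 bp), both picked after their values were seen, also had a knockout peak alone. So did Hoxd3/Hoxd3os1 (926 bp) and Haglr/Hoxd1 (828 bp). Of the pairs without a predicted gene whose peak overlapped no wild type peak, the widest were Pcsk2/Pcsk2os1 at 988 bp, Bbip1/Shoc2 at 971 bp and Ctcfl/Ctcflos at 944 bp. Start windows of genes in members of 1 library alone, 145 in all, reached a CpG ratio of 0.6 in 55.2% of cases, held the ETS core in 7.59% and the TATA box in 10.3%.

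Wild type had 13 members that overlapped no knockout peak, and 9 of them held a predicted gene. The other 4 were Asf1a/Mcm9, Hist3h2a/Trim17, Afmid/Tk1 and Slc25a53/Zcchc18. With predicted and clone-named genes left out, 909 of all 1789 wild type members still had 2 or more genes. Asf1a encodes a histone chaperone and Mcm9 a helicase of DNA repair; their wild type peak was 609 bp wide, and in knockout the genes had separate promoter peaks. Tk1 makes thymidine kinase, an enzyme of dividing cells. The Afmid/Tk1 peak was 844 bp wide, and in knockout 1 of the 2 genes had a promoter peak. The same was true of Slc25a53/Zcchc18, with a peak of 785 bp. Hist3h2a/Trim17 had a peak of 807 bp at -556 bp from both genes in wild type, and in knockout a different peak of 818 bp served both.

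Genes of some basic cell functions shared their promoter peak more often than the 24.0% in wild type and 22.6% in knockout of all genes with one. Of the respiratory chain genes, 43 of 110 with a promoter peak (39.1%) did so in each library, and of the genes of the mitochondrial ribosome and import 47 of 120 (39.2%). All 85 pairs with a gene of either list were found in both libraries, and in 5 of them both genes were on these lists. Textbook pairs among them included Cox4i1/Emc8, with a subunit of cytochrome oxidase (918 bp in wild type and 924 bp in knockout), Bcs1l/Zfp142, with an assembly factor of complex III (855 and 890 bp), and Mrps12/Sars2 (837 and 933 bp).

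Of the DNA replication and repair genes, 44 of 103 (42.7%) shared their promoter peak in wild type and 42 of 103 (40.8%) in knockout. Of their 43 pairs, 40 were in both libraries and 3 in wild type alone: Afmid/Tk1, Asf1a/Mcm9 and Rad17/Taf9. Rad17, a loader of the checkpoint clamp, shared a wild type peak of 939 bp with Ak6 and Taf9. The knockout peak of 926 bp carried promoter lines for Rad17 and Ak6 but not for Taf9. RefSeq gives Ak6 and Taf9 the same start (chr13:100651343), and it lies inside the knockout peak as well. Why Taf9 had no promoter line there was not tested. Textbook pairs of both libraries included Atm/Npat, with the kinase of the response to DNA breaks (885 bp in wild type and 888 bp in knockout), Mcm4/Prkdc (871 and 922 bp) and Mutyh/Toe1 (936 and 905 bp).

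Histone genes shared their promoter peak in 21 of 51 cases (41.2%) in wild type and 28 of 66 (42.4%) in knockout. Of their 18 pairs, 9 joined an H2A with an H2B gene, the partners of the nucleosome's outer dimer. Of these 9 pairs, 6 were in both libraries and 3 in knockout alone: Hist1h2ae/Hist1h2bg (903 bp), Hist1h2ai/Hist1h2bl (837 bp) and Hist2h2ac/Hist2h2be (780 bp). In wild type neither gene of these 3 pairs had a promoter peak. Reads of near-identical histone genes can be lost or split in mapping, so their peaks are uncertain.

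Chaperones stood at 23 of 78 (29.5%) in wild type and 24 of 80 in knockout, and the proteasome at 12 of 48 and 12 of 47 (25.5%). Cytosolic ribosomal proteins were at 19 of 80 (23.8%) in each library, near the share of all genes. Of 26 interferon and antigen processing genes with a promoter peak in wild type, 5 shared it (19.2%), and 5 of 24 did in knockout (20.8%). Their 3 pairs, all in both libraries, were Psmb9/Tap1 (873 bp in wild type and 905 bp in knockout), Dtx3l/Parp9 (801 and 802 bp) and Ifit1/Ifit1bl2 (878 and 911 bp). Genes named Zfp shared their peak in 16.3% of 325 cases in wild type and 16.0% of 344 in knockout, and solute carriers in 16.8% of 220 and 13.5% of 281. Of the cytochrome P450 genes it was 2 of 22 (9.09%) and 2 of 59 (3.39%). With predicted and clone-named partners left out, the genes named Zfp that shared a peak fell from 53 to 26 in wild type and from 55 to 26 in knockout, the solute carriers in knockout from 38 to 23, and the cytochrome P450 genes from 2 to 1 in each library. Some lists were made by naming their genes and others by name patterns. A pattern can take in a few unrelated genes: Col4a3bp, a lipid transfer protein, counted as a collagen.

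**Figure D5:**
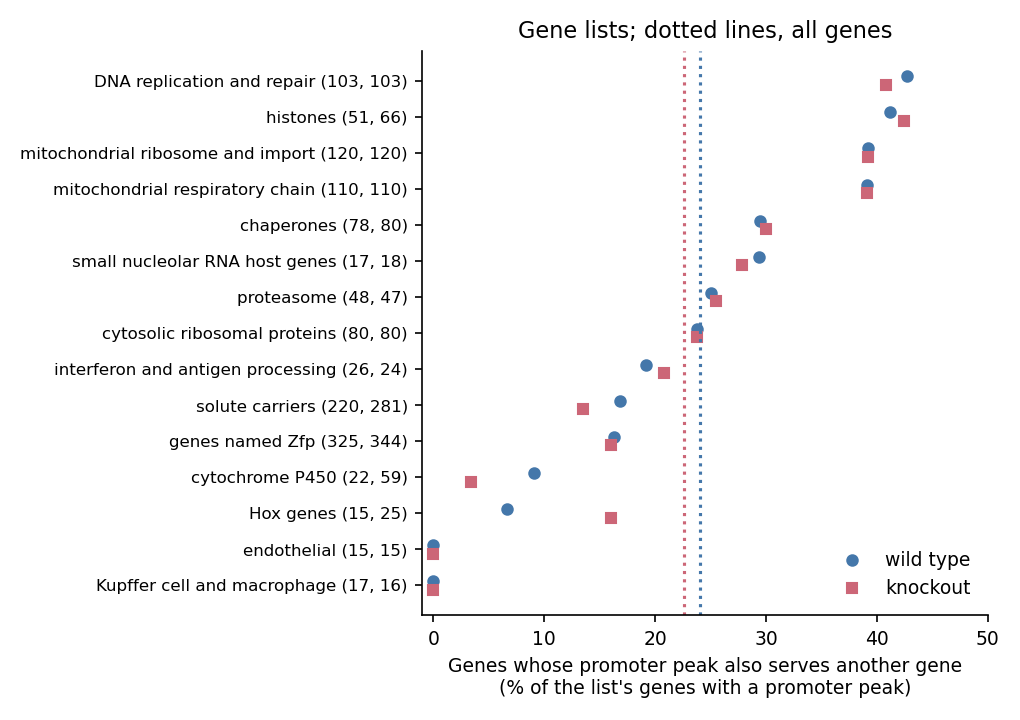
Percent of the genes with a promoter peak in a list that share this peak with another gene (x axis), for lists with at least 15 such genes in wild type (y axis, numbers of genes in wild type and knockout in brackets), in wild type (blue circles) and knockout (red squares). Dotted lines mark all genes, at 24.0% and 22.6%; DNA replication and repair, histones and both mitochondrial lists stand between 39.1% and 42.7%, and endothelial and macrophage markers at 0.

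Markers of liver cell types were rarely in members. Of the marker genes of 7 cell types with a promoter peak, 0 of 56 shared it in wild type and 3 of 81 (3.70%) in knockout. Over all genes with a promoter peak, the shares were 24.0% in wild type and 22.6% in knockout. The 3 included Ttr, the hepatocyte gene of transthyretin, with the noncoding Gm16090 (838 bp), and the ductal transcription factor gene Sox9 with BC006965 (866 bp). The third was Lrat, whose enzyme esterifies retinol in stellate cells, with Rbm46os (863 bp). In wild type none of these 3 pairs was served by 1 peak. Among the 5 receptors and ligands of the TAM family, which includes Mertk, none was in a member. With 5 genes this cannot be told from the share over all genes. Mertk had 1 promoter peak in each library, which served this gene alone.

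The 40 textbook pairs are neighbouring genes often described as sharing a promoter region. Some of them may not lie close in mouse and were counted all the same. Of these pairs, 19 were served by 1 peak in both libraries. In wild type alone it was 1, Afmid/Tk1, in knockout alone 2, Col4a3/Col4a4 and Pdcd10/Serpini1, and in neither 18. Hspd1/Hspe1, with starts 216 bp apart, had a peak of 917 bp in wild type and 921 bp in knockout. Ranbp1/Trmt2a, at 189 bp, had 892 and 904 bp. Surf1/Surf2, a pair of the Surfeit cluster, had 930 and 917 bp, and Paics/Ppat, genes of purine synthesis enzymes, had 904 and 928 bp. Pdcd10/Serpini1, whose starts lie 641 bp apart, shared a knockout peak of 979 bp, while in wild type 1 gene had a promoter peak. Of the 18 pairs not served by 1 peak, 5 had separate promoter peaks in wild type and 8 in knockout. Among them was Trp53/Wrap53, the tumour suppressor and its antisense neighbour, with RefSeq starts 109 bp apart and separate peaks in both libraries. Gart/Son, at 852 bp, also had separate peaks in both. Brca1/Nbr1, at 152 bp, had a promoter peak for 1 gene only in both.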

How the data were processed

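The authors ran cellranger-arc 2.0.2 on mm10, per the file headers, and called peaks separately in each library. The deposited peak lists and peak annotation hold positions and distances to genes and no height, score or p-value; their promoter lines have distances from -1000 to 100 bp. Fragment counts per barcode, deposited without normalisation, were summed over called nuclei. The settings of peak calling are not stated there.

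Analysis covered chromosomes 1 to 19, X and Y, without the peaks on unplaced contigs (43 in wild type, 44 in knockout). Members were chosen with earlier results of these data known, and so were the 23 gene lists, the 40 textbook pairs and the 7 motifs. Overlap meant at least 1 bp, checked with bedtools 2.31.1. Peak heights were not used here, so no value shows how open a peak is. With 1 library per genotype no test was possible and none was made. Gene types, strands, starts and sequences came from RefSeq tables on GRCm38.p6: of 3912 member genes, 3503 matched and 2782 had a promoter window within 1000 bp of the peak. Windows around starts were used in place of windows around peak centres, since no genome was used here. Chromosome 18 had no windows. Scripts (Python 3.11.15, pandas 2.3.3, scipy 1.17.1, matplotlib 3.10.9) were tested on simulated data.

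Named pairs, without predicted or clone-named genes except for the first rule, were those of peaks with the most genes, textbook pairs, the 8 widest in both or in 1 library, the 6 largest and smallest width ratios, up to 4 list pairs of 1 library, Mertk, and the 3 widest coding with noncoding pairs (planned with predicted genes and applied without); others were picked after their values were seen, and a few pairs are not reported here. Alternatives varied the overlap rule, the gene set, the width minimum, the chromosomes and the length of the knockout list.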

Additional observations from a re-analysis of the deposited data

How the results depend on the processing

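No paired analysis was possible because each genotype had 1 library and no test was run. With predicted and clone-named genes left out, members numbered 909 in wild type and 942 in knockout, 96.9% of knockout members were overlapped, their excess over peaks of 1 gene in wild type was 4.98 percentage points (6.56 with all genes), and median widths were 897 and 901 bp. Where the other peak had to be a member itself, 97.8% of wild type and 91.1% of knockout members were overlapped. With the knockout list held to its widest peaks, these shares were 82.6% and 95.7%, and the excess was 15.8 and 14.5 points. The excess in knockout, 17.1 points over all peaks of 1 gene, was 13.0 points against peaks with the start inside, 10.3 with a coding gene and the start inside, 6.24 at a CpG ratio of at least 0.6 and 13.6 under it. In wild type it was 3.62, 2.43 and 2.38 points for the first 3 of these. The last 4 sets were chosen after seeing the data. The excess was above 0 under all 20 alternatives run for it, and the cause of these moves was not tested. Pairs of both libraries were coding with coding in 63.2% of matched cases and pairs of 1 library in 38.8%, against 60.7% of all; pairs of 1 library were divergent in 65.2%. The other 34 values stayed within 1.5 times for counts or within the 95% interval for shares and medians. Of 46 list counts, 7 moved by over 1.5 times without predicted partners, those of genes named Zfp and cytochrome P450 in both libraries and of solute carriers, hepatocyte and cholangiocyte markers in knockout; Ttr and Sox9 then had no partner left. The sequence of whole peaks was not run. The wild type list rests on fewer fragments; the part of depth was not tested.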
